A study of Mus musculus with 21 samples.

Results

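Trained and untrained quadriceps muscle of mice were compared 6 h after one bout of treadmill running to exhaustion, using RNA sequencing of bulk tissue. The comparison took its members by group label: 3 libraries of trained mice and 3 libraries of untrained mice, which made 6 of the 21 libraries in the table. Genes entered the test when their mean over these 6 libraries was at least 1 TPM (transcripts of a gene, corrected for length and set against the sum over all genes of that library), which left 11691 of 53738 gene symbols.

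All mice were adult male C57/Bl6 wild-type animals. Trained mice had running wheels in their cages for 12 weeks and ran on them voluntarily, while untrained mice had none. After short runs at low speed to get used to the treadmill, both groups ran the same incremental test, in which belt speed was raised until the mouse could not go on, and their muscles were taken 6 h later. The bout ended at each mouse's own limit and followed the wheel period without a rest, so that differences in the work done, in recent wheel activity and in lasting adaptation cannot be told apart here. Sedentary mice, which did not run, and mice killed 0 h or 72 h after the bout completed the series and gave the reference levels below. The labels number the replicates but do not say how many animals stand behind each, so that the p-values measure the spread between libraries.

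A hard bout of running heats, stretches and deforms muscle fibres and leaves unfolded proteins behind. Within hours, muscle transcribes immediate early transcription factors, then heat shock chaperones and proteins of the Z-disc and costamere that respond to mechanical load, and somewhat later regulators of mitochondria and fat use such as the coactivator PGC-1α and its nuclear receptor partners, the estrogen-related receptors (ERR). The comparison at 6 h asks how far these programmes still differ between muscles of mice with weeks of wheel running behind them and muscles of mice kept without a wheel.

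All 6 libraries carried the transcripts of skeletal muscle, with a summed level of the 10 muscle markers between 36623 and 43366 TPM. Transcripts of the mitochondrial genome took 40.6 to 43.7% of the TPM in untrained libraries and 45.7 to 47.0% in trained ones, so that all other genes shared a smaller total in the trained group. The median standard deviation (SD) within a group was 0.17 on the log2 scale in untrained, 0.12 in trained and 0.12 in sedentary muscle. Pearson correlations over tested genes ran from 0.920 to 0.933 within the 2 groups and from 0.911 to 0.931 between them. The 0 h columns held 2 identical libraries under different labels, and both were left out of the model. Sequencing depth is unknown, since TPM values do not keep it.

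At 6 h, trained muscle held less mRNA of many inducible chaperones, immediate early genes and load-sensing proteins than untrained muscle and more mRNA of Sln, Esrrg, Ppara and G0s2. Of the 11691 genes, 239 were called different (2.04%), with 167 lower (1.43%) and 72 higher (0.616%) in trained muscle. A call required an adjusted p below 0.05 (limma, Benjamini-Hochberg over all tested genes) and at least a 1.5-fold difference, and 2280 genes had an unadjusted p below 0.05. The 3 trained and the 3 untrained libraries did not overlap in 237 of the 239 genes. Over all tested genes, called or not, the trained libraries lay wholly below the untrained ones in 11.5% and wholly above them in 7.52%, and counts of members without overlap are to be read against these shares. Counts of called members are likewise to be read against the 1.43% called lower and the 0.616% called higher. Among nuclear protein-coding genes, 135 were lower and 56 higher. The lower genes were also the further apart, with 62 of them past 2-fold, 19 past 4-fold and 6 past 8-fold, against 12, 1 and 0 of the higher genes. The median difference of all tested genes was −0.04 on the log2(TPM + 0.5) scale on which all differences are given, a scale that understates the change of genes with low levels. The balance between both directions moved with the scaling: 30.1% of the calls were higher in trained muscle with the deposited TPM, 36.7% with median-of-ratios scaling, 39.2% with quantile normalization, 48.8% after the mitochondrial genome and the 10 highest genes were removed, and 55.8% after rescaling to nuclear protein-coding genes, which moved the median of all genes to 0.08. The medians of the chaperone, small heat shock protein, immediate early, mechanosensing and PGC-1/ERR lists kept their sign under each of these scalings.

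**Figure D1:**
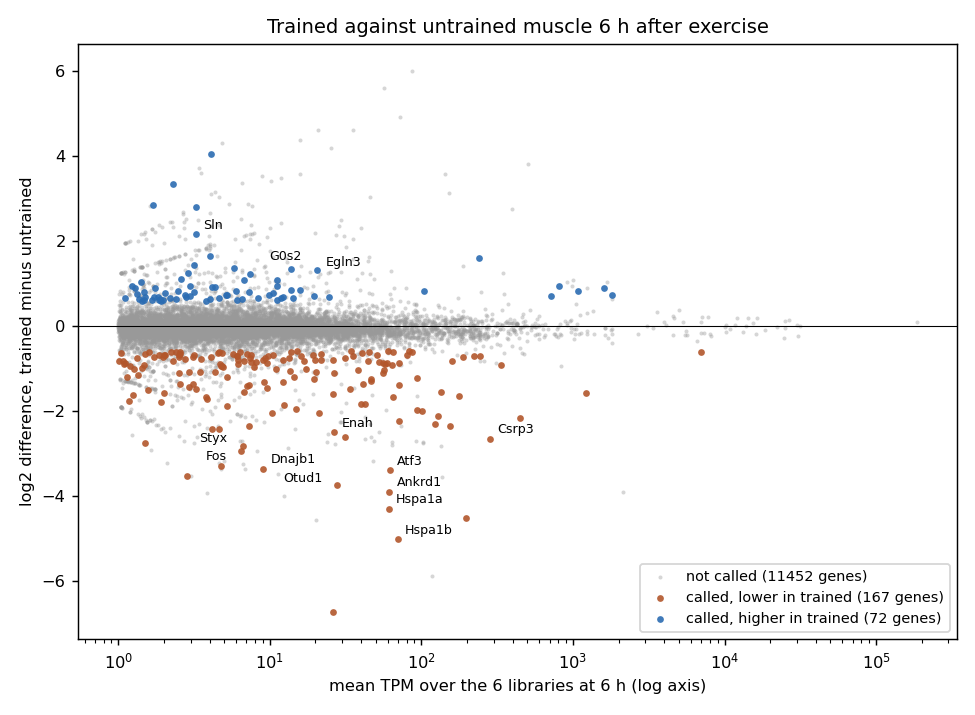
Log2 difference between trained and untrained muscle at 6 h (vertical axis, trained minus untrained) against the mean TPM over the 6 libraries (log axis), 1 point per tested gene. The 167 called genes below 0 reach further from 0 than most of the 72 called genes above it, and the 10 lower protein-coding genes with the largest differences are labelled together with Sln, G0s2 and Egln3. On the higher side, the protein-coding genes Dusp18, Ppara and Slc25a34 lie between Sln and G0s2 without a label. Other unlabelled called points further out include non-coding RNAs and pseudogenes.

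Heat shock chaperones held the 2 largest differences among nuclear protein-coding genes. Of 23 chaperones and cochaperones, listed as inducible and cytosolic but including the mitochondrial Hspe1, 11 were called lower in trained muscle (1.43% of all tested genes) and none higher. Their median was −0.59, and 16 of the 23 lay wholly below the untrained libraries (11.5% of all tested genes). All 23 fitted differences were below 0. Leaving out any 1 library gave 9 to 13 lower calls, and the 4 other scalings gave 8 or 9.

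The inducible HSP70 genes Hspa1b and Hspa1a stood first. Hspa1b measured 102, 181 and 124 TPM in the 3 untrained libraries and 7.92, 2.51 and 2.25 TPM in the 3 trained libraries. Every untrained library was more than 10 times higher than every trained one, and sedentary muscle lay lower still at 0.589 ± 0.081 TPM (SD, n = 3). The log2 difference was −5.01 ± 0.40 (SE, adjusted p = 1.97e-05). Hspa1a went the same way, from 89.0, 151 and 108 TPM in untrained to 8.73, 4.03 and 4.14 TPM in trained muscle (−4.29 ± 0.36, adjusted p = 3.17e-05). Both genes encode nearly identical proteins from adjacent copies, reads may be split between them arbitrarily, and Hspa1a also overlaps the non-coding gene Gm20481 on the other strand, so that their individual levels are uncertain.

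Dnajb1, the HSP40 cochaperone that loads clients onto HSP70, had the smallest adjusted p of the group. It measured 14.3, 20.2 and 16.0 TPM in untrained and 1.38, 1.00 and 1.21 TPM in trained muscle (−3.35 ± 0.21, adjusted p = 4.48e-06). The trained libraries were close to the sedentary level of 0.945 ± 0.326 TPM, while immediately after the bout both groups had been high, with means of 62.0 TPM (untrained) and 47.8 TPM (trained, n = 2 each). Hsp90aa1, the inducible cytosolic HSP90, ranged from 109 to 174 TPM in untrained and from 28.1 to 57.5 TPM in trained libraries (−1.97 ± 0.30, adjusted p = 0.00208). The other HSP40 family members Dnaja1 (−1.83), Dnajb4 (−1.48) and Dnaja4 (−1.23), the HSP70 nucleotide exchange factors Hsph1 (−0.62) and Bag3 (−0.87), the HSP90 activator homologue Ahsa2 (−0.69, call lost in 6 of 22 alternative settings) and the mitochondrial chaperonin subunit Hspe1 (−0.59) completed the 11. Hsph1 and Hspe1 lay close to the thresholds and lost the call under 12 and 11 of the 22 alternative settings. The annotated span of Dnaja1 shares 12945 bases with Smu1 on the opposite strand. Hspa8, the constitutive HSP70, was not called although its libraries did not overlap (751 to 1511 TPM against 481 to 638 TPM, −0.93 ± 0.30, adjusted p = 0.0961). Hsf1, the transcription factor that drives heat shock genes, had a difference of −0.18 with overlapping libraries.

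Small heat shock proteins, which hold unfolded proteins at the Z-disc and intermediate filaments, were called lower in 5 of 7 cases (1.43% of all tested genes) with a median of −0.82. In 6 of the 7, the trained libraries lay wholly below the untrained ones (11.5% of all tested genes). Cryab (αB-crystallin) measured 1706, 1982 and 1708 TPM in untrained and 922, 516 and 469 TPM in trained muscle (−1.56 ± 0.19, adjusted p = 5.24e-04). Its trained replicates 2 and 3 were near the sedentary mean of 470 TPM, with trained replicate 1 in between. Hspb1 (HSP25), which binds desmin and actin, went from 618, 827 and 720 TPM to 238, 140 and 126 TPM (−2.15 ± 0.23, adjusted p = 1.91e-04), against 76.6 TPM in sedentary muscle. Hspb8 (−0.92), the partner of BAG3 in selective autophagy, and the muscle members Hspb3 (−0.82) and Hspb2 (−0.68) were lower as well. Hspb7 (−0.81, adjusted p = 0.0895) and Hspb6 (−0.28, adjusted p = 0.223) were not called. Hspb2 lies within the annotated span of Cryab on the opposite strand, and the library kit does not mark strand, so that reads of the pair cannot be fully told apart. Leaving out any 1 library gave 4 to 6 lower calls in the list.

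Heat shock factors bind inverted repeats of the letters GAA, and the stretches before the start sites of these chaperones are shown because 11 of the chaperones and 5 of the small heat shock proteins were called in the same direction. A complete element of 3 units (GAA, TTC and GAA with 2 bases of any kind between neighbours, searched on both strands) stood in the 500 bases before the start of 0.939% of 9585 tested nuclear protein-coding genes and in 1 of the 11 lower chaperones, Hspe1. This complete element stood in 2 of the 134 lower genes with a window (1.49%) and in 2 of the 56 higher ones (3.57%), a larger share on the higher side. With 1 of its 9 fixed letters free to differ, a looser form chosen after the first search, it stood in 11.6% of all 9585 genes, in 14.2% of the 134 genes lower in trained muscle with a window, in 7.14% of the 56 higher ones, in 5 of the 11 lower chaperones (Hspa1a, Hspa1b, Dnaja1, Hspe1 and Hsph1) and in 2 of the 5 lower small heat shock proteins (Hspb1 and Hspb3). Each sequence reads 5′ to 3′ along the gene (GRCm39, canonical transcript of the annotation), with the looser match, or 2 overlapping ones, in capitals. The stretches lie at chr17:35191217-35191258 (Hspa1a, minus strand), chr17:35178299-35178340 (Hspa1b, minus strand), chr5:149559807-149559846 (Hsph1, minus strand), chr5:135916644-135916680 (Hspb1, plus strand) and chr1:55127206-55127247 (Hspe1, plus strand).
Hspa1a: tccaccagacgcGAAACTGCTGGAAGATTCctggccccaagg
Hspa1b: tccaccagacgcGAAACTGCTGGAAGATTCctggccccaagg
Hsph1: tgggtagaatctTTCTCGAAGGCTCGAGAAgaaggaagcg
Hspb1: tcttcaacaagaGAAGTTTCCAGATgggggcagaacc
Hspe1: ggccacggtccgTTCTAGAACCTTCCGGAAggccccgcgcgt
The stretch was identical in Hspa1a and Hspa1b. A match is a description of letters and not a measured binding site.

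Immediate early genes formed the second group. Of 25 listed, 21 reached the level required for testing, and 9 of these were called lower in trained muscle (1.43% of all tested genes) and none higher. Their median was −0.65, with 13 of 21 wholly below the untrained libraries, against 11.5% of all tested genes. Fosb, Fosl1, Egr2 and Egr3 stayed below the level for testing in both groups, and Egr3 averaged 0.207 TPM without and 0.0629 TPM with training. Leaving out any 1 library gave 7 to 12 lower calls, and the other scalings gave 9 to 11. Without untrained replicate 2 or 3, only 19 members reached the level for testing. Some members thus entered the test through high untrained libraries, which favours the lower direction in these counts.

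Fos, the AP-1 subunit, measured 8.51, 18.5 and 8.77 TPM in untrained and 1.22, 0.938 and 0.968 TPM in trained muscle (−2.93 ± 0.50, adjusted p = 0.00452). All 3 trained libraries were thus in the range of sedentary muscle (1.45 ± 1.73 TPM), although the trained mean at 0 h had been 112 TPM and the untrained one 78.3 TPM (n = 2 each). Atf3, a stress-induced factor of the ATF family, had the largest difference of the list. It measured 109, 149 and 68.9 TPM in untrained and 32.5, 6.94 and 3.56 TPM in trained muscle (−3.38 ± 0.55, adjusted p = 0.00315). Trained replicate 1 stood well above the other trained libraries and still below all untrained ones. Egr1, a zinc finger factor, ranged from 5.25 to 12.7 TPM in untrained and from 0.699 to 1.86 TPM in trained muscle (−2.41 ± 0.57, adjusted p = 0.0269). Its call was lost in 7 of the 21 alternative settings in which it was tested.

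The remaining calls concerned Ccn1, a matricellular protein induced by stretch (−2.03 ± 0.31, adjusted p = 0.00208), the orphan nuclear receptor Nr4a3 (−1.87 ± 0.26, adjusted p = 0.00106), the antiproliferative factor Btg2 (−1.41), Ier5, a regulator of heat shock factor activity (−1.35), the AP-1 subunit Jund (−0.81) and the small MAF factor Maff (−0.63, call lost in 6 of the 20 settings in which it was tested). Nr4a3 differed from Fos in that both groups stayed above the sedentary mean of 0.194 TPM, with 6.03, 12.8 and 6.65 TPM in untrained and 2.76, 1.34 and 1.63 TPM in trained muscle. Jun did not overlap between the groups but was not called (14.3, 24.9 and 16.2 TPM against 11.1, 12.5 and 10.3 TPM, −0.65 ± 0.18, adjusted p = 0.0528). Junb (−0.05), Cebpb (−0.16), Nr4a2 (−0.37) and Myc (−0.51) overlapped between the groups and had adjusted p-values from 0.464 to 0.899. Junb lay between 3.25 and 4.92 TPM in all 6 libraries, in the same range as the sedentary mean of 3.58 TPM. Jund overlaps the non-coding gene Gm11175, and Jun overlaps Junos, on the opposite strand.

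Promoter stretches are shown for Fos and for members of this group that hold a cAMP response element, the target of CREB and ATF factors. The letters TGACGTCA, read on both strands and sharing no match with the AP-1 letters TGANTCA, stood in the 500 bases before the start of 2.52% of the 9585 genes, in 10 of the 134 lower genes with a window (7.46%), in 0 of the 56 higher genes, and in 3 of the 9 lower immediate early genes (Btg2, Jund and Maff). The AP-1 letters stood in 9.68% of all genes, 15.7% of the lower and 8.93% of the higher ones. The CArG box, bound by serum response factor, stood in 2.62% of all, 2.99% of the lower and 1.79% of the higher genes, Fos among the lower. Capitals mark the CArG box in Fos (chr12:85520343-85520376, plus strand) and the cAMP response element in Jund (chr8:71151371-71151406, plus strand), Btg2 (chr1:134007038-134007073, minus strand), Maff (chr15:79231677-79231712, plus strand) and Rcan1 (chr16:92197120-92197155, minus strand), all in GRCm39.
Fos: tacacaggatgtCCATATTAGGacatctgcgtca
Jund: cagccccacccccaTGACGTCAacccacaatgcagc
Btg2: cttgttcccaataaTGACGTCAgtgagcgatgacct
Maff: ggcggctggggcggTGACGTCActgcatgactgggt
Rcan1: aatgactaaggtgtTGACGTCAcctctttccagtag
Rcan1, the inhibitor of calcineurin, is no member of the list and was shown for its level, chosen after its values were seen: 118, 133 and 136 TPM in untrained and 79.1, 40.2 and 53.0 TPM in trained muscle (−1.21 ± 0.21, adjusted p = 0.00452).

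Muscle ankyrin repeat and other load-sensing proteins were called lower in 5 of 11 cases (1.43% of all tested genes). Their median was −0.63, with 8 of 11 wholly below the untrained libraries, against 11.5% of all tested genes. The same count of 5 was found under each of the 4 other scalings, and 5 to 7 were called when any 1 library was left out. Ankrd1 (CARP), a titin-binding factor induced by stretch, measured 96.4, 175 and 68.8 TPM in untrained and 20.5, 5.22 and 2.47 TPM in trained muscle (−3.90 ± 0.53, adjusted p = 9.46e-04). Unlike Fos and Hspa1b, Ankrd1 had been low at 0 h in both groups, with means of 4.65 and 3.06 TPM. Csrp3 (muscle LIM protein), a Z-disc component, measured 538, 436 and 434 TPM in untrained and 196, 77.3 and 26.6 TPM in trained muscle (−2.65 ± 0.50, adjusted p = 0.00749). The trained libraries spread over a wider range than the untrained ones, with replicate 1 highest and replicate 3 under the sedentary mean of 60.9 TPM. Xirp1, an actin-binding protein of sites of fibre repair, ranged from 209 to 330 TPM against 31.4 to 94.5 TPM (−2.35 ± 0.39, adjusted p = 0.0038). Flnc (filamin C, −1.65 ± 0.18, adjusted p = 1.83e-04) and Ankrd2 (−1.56 ± 0.26, adjusted p = 0.00399) followed. Trained replicate 1 was the highest of the 3 trained libraries for all 5 genes. Nrap (−0.54), Xirp2 (−0.50) and Ankrd23 (−0.45) had adjusted p-values under the threshold but differences under 1.5-fold, and Myoz2, a slow-fibre Z-disc protein, was the single member with a difference above 0 (0.51, adjusted p = 0.25).

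**Figure D2:**
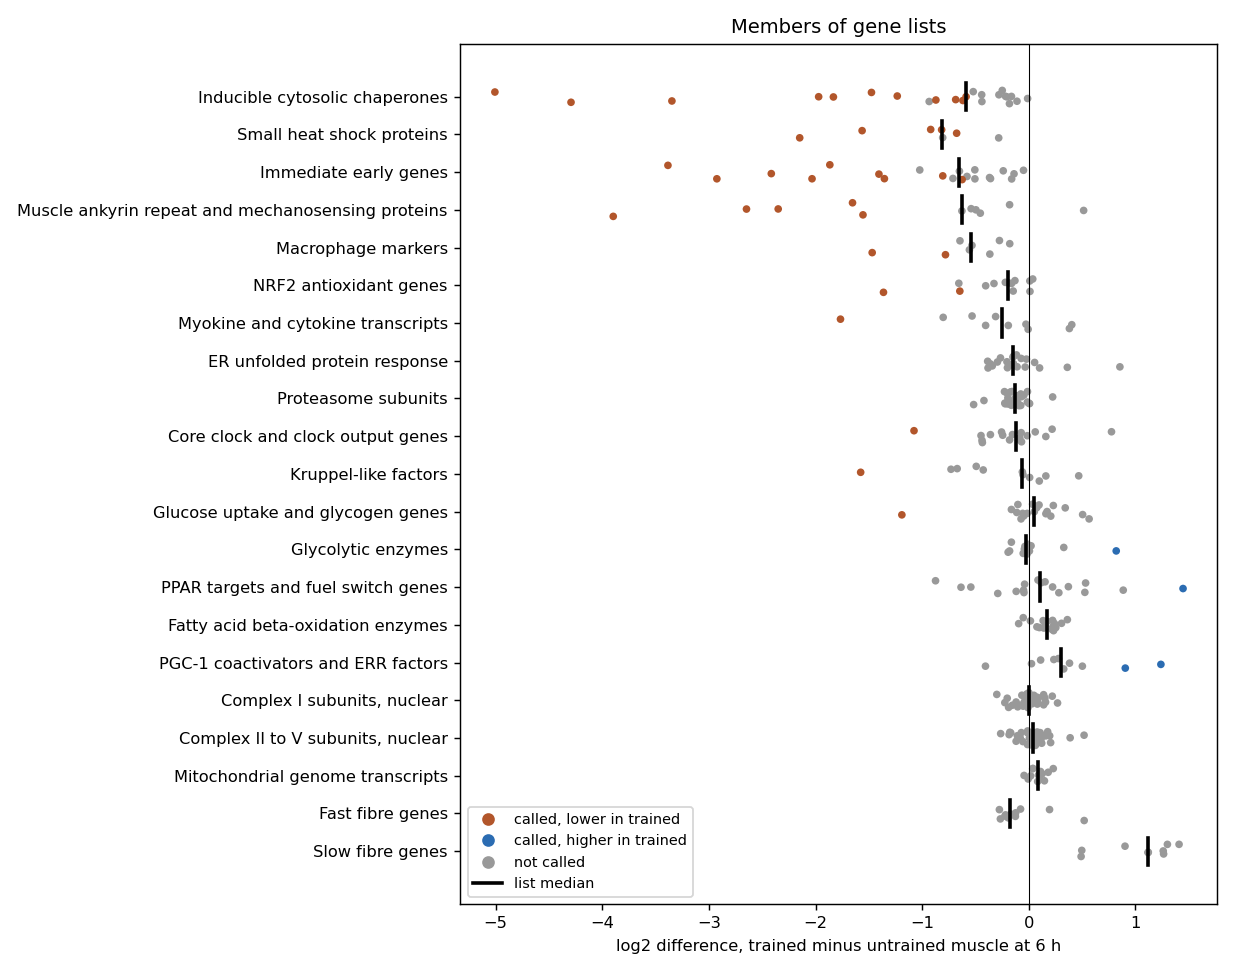
Log2 difference between trained and untrained muscle at 6 h for the tested members of 21 gene lists, 1 point per gene, with a black bar at each list's median. Chaperones, small heat shock proteins, immediate early genes and mechanosensing proteins have medians from −0.59 to −0.82 and tails to −5.01, whereas the slow fibre genes have a median of 1.12 with no called member.

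Otud1, Enah and Styx, which belong to none of these lists, were also among the 10 nuclear protein-coding genes with the largest differences downwards. Otud1, a deubiquitinase, went from 34.5, 88.3 and 33.7 TPM in untrained to 7.36, 2.18 and 1.60 TPM in trained muscle (−3.74 ± 0.45, adjusted p = 3.86e-04). Enah, an actin-elongation factor of the Ena/VASP family, went from 36.8, 55.5 and 42.4 TPM to 14, 5.08 and 5.73 TPM (−2.49 ± 0.27, adjusted p = 1.84e-04). In both genes the groups were clearly apart, and Enah in trained replicates 2 and 3 was near the sedentary mean of 4.68 TPM. Styx, a catalytically inactive phosphatase, differed from these in that its untrained values of 9.14, 16.3 and 10.6 TPM were near the sedentary mean of 12.7 TPM and its trained values of 1.27, 1.10 and 1.36 TPM lay below it (−2.81 ± 0.71, adjusted p = 0.0373). Its libraries also spread widely within other groups (at 0 h, 7.09 ± 7.76 TPM without and 7.22 ± 7.21 TPM with training, SD, n = 2 each, and at 72 h 4.13 ± 4.67 TPM without training, n = 3). Its call was lost in 9 of 22 alternative settings, and its annotated span shares 46497 bases with Gnpnat1 on the opposite strand.

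**Figure D3:**
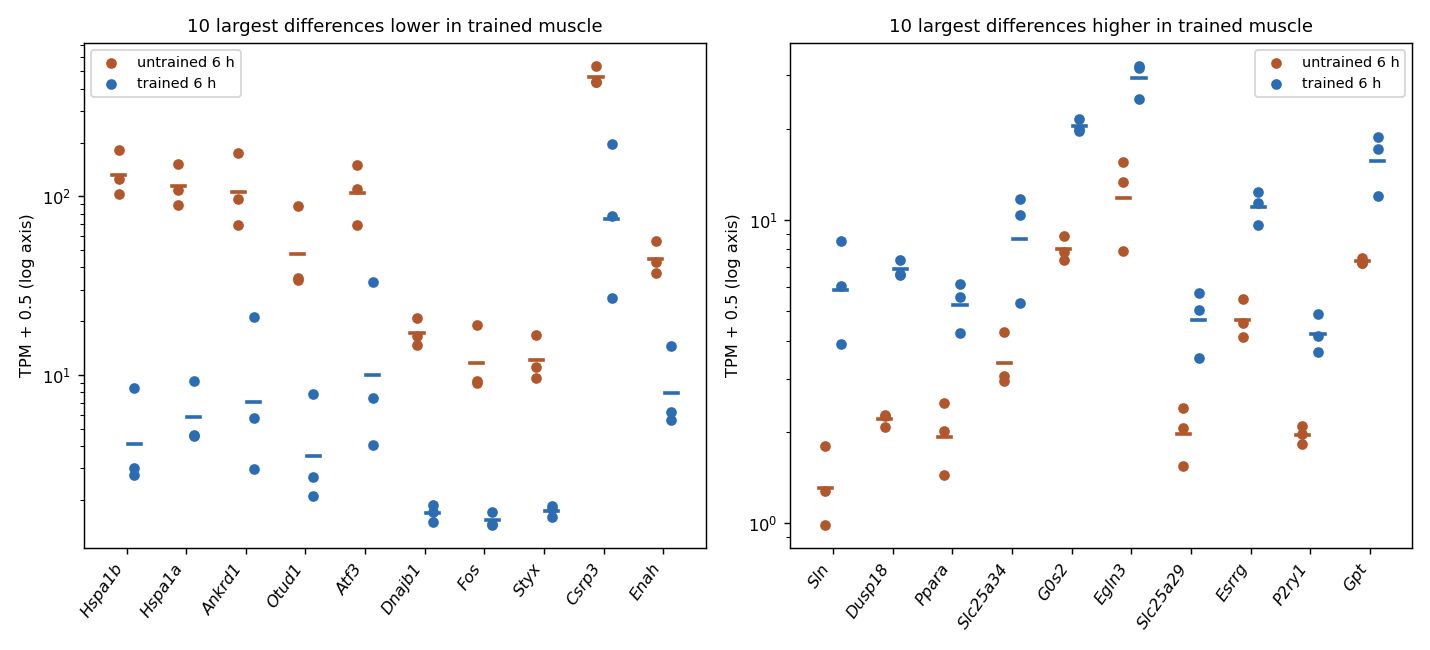
Levels in each library at 6 h (TPM + 0.5, log axis) of the 10 nuclear protein-coding genes with the largest differences in each direction. Points are libraries and short bars are group means on the log scale. No untrained and trained points overlap for any of the 20 genes, and in several lower genes 1 trained library sits above the other 2.

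The genes higher in trained muscle included regulators of oxidative metabolism and fat use. Of 10 PGC-1 coactivators and ERR factors, 2 were called higher (0.616% of all tested genes) and none lower. Their median was 0.30, with 6 of 10 wholly above the untrained libraries, against 7.52% of all tested genes. Leaving out any 1 library, or any of the 4 other scalings, gave 2 calls as well. Esrrg (ERRγ), a nuclear receptor of oxidative fibres, measured 5.01, 4.07 and 3.60 TPM in untrained and 11.9, 10.9 and 9.15 TPM in trained muscle (1.24 ± 0.12, adjusted p = 8.23e-05). The untrained libraries were near the sedentary mean of 3.67 TPM. Esrrb (ERRβ) was lower in level and went the same way, from 1.19, 0.926 and 1.09 TPM to 2.55, 2.19 and 2.57 TPM (0.91 ± 0.12, adjusted p = 8.25e-04). Esrra (ERRα) and Perm1, a muscle regulator downstream of PGC-1 and ERR, did not overlap but differed by less than 1.5-fold (0.23 ± 0.06, adjusted p = 0.0369, and 0.28 ± 0.08, adjusted p = 0.0537). Ppargc1a itself overlapped between the groups, with 22.3, 33.1 and 25.9 TPM in untrained and 48.6, 29.1 and 39.2 TPM in trained muscle (0.50 ± 0.20, adjusted p = 0.17). Both groups were far above the sedentary mean of 3.90 TPM.

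Ppara, the fatty acid-sensing nuclear receptor, was the single call among 18 tested PPAR targets and fuel switch genes. It measured 1.51, 0.938 and 1.99 TPM in untrained and 5.09, 3.74 and 5.65 TPM in trained muscle (1.45 ± 0.24, adjusted p = 0.00357). The untrained values were near the sedentary mean of 1.71 TPM and all trained values were above them. The list's median was 0.10, and 1, 3, 4 and 4 members were called higher under the 4 other scalings. Cd36, the fatty acid translocase, stayed under the 1.5-fold threshold (71.4 to 79.6 TPM against 98.1 to 129 TPM, 0.53 ± 0.10, adjusted p = 0.0072). Pdk4, the kinase that closes pyruvate dehydrogenase, spread from 86.6 TPM to 515 TPM within the trained group alone and overlapped with the untrained range of 299 to 440 TPM (−0.87 ± 0.63, adjusted p = 0.485). The highest of these values was again trained replicate 1. Of 17 fatty acid beta-oxidation enzymes none was called, with a median of 0.17. Their differences were above 0 in 15 and below it in 2, and 5 of 17 lay wholly above the untrained libraries (7.52% of all tested genes). The trifunctional protein subunits Hadha (0.23, adjusted p = 0.196) and Hadhb (0.22, adjusted p = 0.498) overlapped between the groups.

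Sln (sarcolipin), the small inhibitor of the sarcoplasmic calcium pump, had the largest difference upwards among nuclear protein-coding genes. It measured 0.775, 1.30 and 0.483 TPM in untrained and 8.05, 5.57 and 3.41 TPM in trained muscle (2.17 ± 0.33, adjusted p = 0.00225). Sln reached the level for testing through the trained libraries, its untrained mean being 0.851 TPM. Its highest trained value was that of replicate 1, as for the slow fibre genes described below. Dusp18, a dual-specificity phosphatase, was the tightest of the 10, with 1.58, 1.78 and 1.76 TPM against 6.89, 6.15 and 6.10 TPM (1.64 ± 0.17, adjusted p = 1.40e-04). G0s2, an inhibitor of the triglyceride lipase ATGL, measured 7.37, 8.36 and 6.91 TPM in untrained and 19.1, 19.5 and 21.1 TPM in trained muscle (1.34 ± 0.26, adjusted p = 0.00862). Its annotated span shares 6615 bases with Lamb3 on the opposite strand, and the library kit does not mark strand. Egln3 (PHD3), the hypoxia-inducible prolyl hydroxylase, was above the sedentary mean of 6.29 TPM in all 6 libraries and highest in trained muscle, with 15, 7.43 and 12.9 TPM against 31.3, 31.8 and 24.5 TPM (1.32 ± 0.25, adjusted p = 0.00697).

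The remaining genes of the 10 were Slc25a34, Slc25a29, Gpt and P2ry1. The mitochondrial carrier family members Slc25a34 (1.36 ± 0.29, adjusted p = 0.0146) and Slc25a29 (1.25 ± 0.24, adjusted p = 0.00862), the latter a carrier of basic amino acids, were at most at 3.76 and 1.90 TPM in untrained and at least at 4.81 and 3.02 TPM in trained libraries. Gpt, the alanine aminotransferase that links pyruvate and glutamate, measured 7.01, 6.73 and 6.71 TPM in untrained and 18.2, 16.6 and 11.5 TPM in trained muscle (1.10 ± 0.17, adjusted p = 0.00244). P2ry1, a receptor for extracellular ADP, was higher with 1.32 to 1.60 TPM against 3.18 to 4.40 TPM (1.10 ± 0.15, adjusted p = 8.25e-04). The call of Slc25a34 was lost in 5 of 22 alternative settings.

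The ERR response element is shown for 3 of the higher genes that hold it, since 2 ERR genes were called. The letters TCAAGGTCA, on either strand, stood in the 500 bases before the start of 1.07% of the 9585 genes, in 4 of the 56 higher genes (7.14%) and in 0 of the 134 lower genes. The 4 genes were Tm6sf1 (0.92 ± 0.14, adjusted p = 0.00243), Nudt22 (0.74 ± 0.10, adjusted p = 8.25e-04), Cyth1 (0.67 ± 0.14, adjusted p = 0.0146) and Tfcp2l1 (0.62 ± 0.15, adjusted p = 0.0303), and none belongs to a metabolic list used here. For 3 of them the stretch is shown, with the element in capitals, at chr19:6973678-6973714 (Nudt22, minus strand), chr11:118139721-118139757 (Cyth1, minus strand) and chr1:118555175-118555211 (Tfcp2l1, plus strand) in GRCm39, and the last 2 read as its reverse complement.
Nudt22: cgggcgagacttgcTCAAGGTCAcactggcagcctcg
Cyth1: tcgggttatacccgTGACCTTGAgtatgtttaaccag
Tfcp2l1: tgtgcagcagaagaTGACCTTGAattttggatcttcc
Nudt22, Cyth1 and Tfcp2l1 were named for the element, after their values were seen. The share of 4 in 56 rests on calls of which that of Tfcp2l1 was lost in 9 of 21 and that of Cyth1 in 5 of 22 alternative settings.

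Subunits of oxidative phosphorylation and enzymes of the tricarboxylic acid cycle held no call. The medians were 0.00 for 36 nuclear complex I subunits, 0.04 for 40 tested subunits of complexes II to V, 0.12 for 15 tricarboxylic acid cycle enzymes and 0.09 for 13 mitochondrial genome transcripts. Of the 15 cycle enzymes, 12 had differences above 0 and 3 below it. Wholly above the untrained libraries lay 5 of them (7.52% of all tested genes), and 1 lay wholly below. Quantile normalization and both rescalings each called 1 cycle enzyme higher. Ldhb, the heart-type lactate dehydrogenase subunit, was the single call among 12 glycolytic enzymes, with 90.5, 69.3 and 64.3 TPM in untrained and 157, 125 and 114 TPM in trained muscle (0.82 ± 0.18, adjusted p = 0.0187). Among 19 glucose uptake and glycogen genes, Tbc1d1, a Rab GTPase-activating protein that restrains GLUT4 traffic, was lower, with 23.7, 16.3 and 20.9 TPM against 6.91, 9.29 and 9.57 TPM (−1.19 ± 0.21, adjusted p = 0.00502). The trained values of Tbc1d1 were near the sedentary mean of 5.86 TPM. Mb (myoglobin), an oxygen-binding protein of oxidative fibres, was higher, with 1601, 1264 and 1207 TPM in untrained and 2674, 2363 and 1752 TPM in trained muscle (0.73 ± 0.16, adjusted p = 0.0212). The call was lost in 7 of 22 alternative settings for Mb and in 5 of 22 for Ldhb. The annotated span of Mb shares 34798 bases with Apol6 on the opposite strand.

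Single members of other regulatory lists were called. Klf5, a Krüppel-like factor, was the one call among 11 tested family members, with 2.14, 4.84 and 2.90 TPM in untrained and 0.863, 0.555 and 0.755 TPM in trained muscle (−1.58 ± 0.20, adjusted p = 7.15e-04). The trained values were around the sedentary mean of 0.709 TPM. Nr1d1 (REV-ERBα), a repressor in the circadian clock, was the one call among 18 clock genes, with 24.1, 31.2 and 27.4 TPM against 15.2, 13.7 and 9.97 TPM (−1.08 ± 0.15, adjusted p = 0.00143). Here both groups were below the sedentary mean of 53.3 TPM, and the clock gene Per1 overlapped between the groups at 6 h (−0.44, adjusted p = 0.373). Among 13 NRF2 antioxidant genes, Srxn1 (sulfiredoxin, −1.36 ± 0.29, adjusted p = 0.0153) and Hmox1 (haem oxygenase 1, −0.65 ± 0.15, adjusted p = 0.0248) were lower, and the count was 0 when untrained replicate 2 or trained replicate 2 was left out. Among 10 tested myokine and cytokine transcripts, the chemokine gene Ccl2 was lower (1.37, 2.68 and 2.21 TPM against 0.560, 0.139 and 0.106 TPM, −1.77 ± 0.23, adjusted p = 7.45e-04). Ccl2 reached the level for testing only through the untrained libraries, its trained values all being under 1 TPM. It was tested in 19 of the 22 alternative settings. Without untrained replicate 2 or 3, the list held 9 tested genes and 0 calls. Shmt1, a cytosolic enzyme of one-carbon metabolism, was higher (0.65 ± 0.14, adjusted p = 0.0202) among 8 tested genes of its list, with the call lost in 6 of 21 settings.

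Several stress-related lists held no call. The 21 genes of the endoplasmic reticulum unfolded protein response had a median of −0.14, and its most abundant members Hspa5 (BiP, −0.36 ± 0.14, adjusted p = 0.174) and Calr (calreticulin, −0.17 ± 0.09, adjusted p = 0.351) overlapped between the groups. The 31 proteasome subunits had a median of −0.13, with 28 differences below 0, 3 above it and 11 members wholly below the untrained libraries (11.5% of all tested genes). After rescaling to nuclear protein-coding genes that median was −0.01. The other medians were −0.05 for the 12 glucocorticoid-responsive genes, −0.07 for the 12 tested atrophy ligases and FOXO factors, −0.05 for the 22 splicing regulators, 0.12 for the 10 tested angiogenic genes, −0.19 for the 8 tested genes of insulin-like growth factor and myostatin signalling and −0.07 for the 2 cold-inducible RNA-binding proteins. A list without a call does not show that its genes were equal between the groups.

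The levels over the whole series place these differences. Over 0 h, 6 h and 72 h, Atf3 averaged 32.8, 109 and 2.30 TPM in untrained and 41.0, 14.3 and 1.26 TPM in trained muscle. Csrp3 followed a later course, with 69.1, 469 and 102 TPM in untrained and 52.0, 100 and 13.3 TPM in trained muscle. Esrrg was at 2.36, 4.23 and 2.92 TPM in untrained and 3.18, 10.6 and 2.84 TPM in trained muscle. For each of these 3 genes, the groups were furthest apart in TPM at 6 h. On the log2 scale Csrp3 was as far apart at 72 h (−2.91 ± 0.50, adjusted p = 0.0165), and Ankrd2 (−1.41 ± 0.26, adjusted p = 0.0255) and the macrophage marker Cd68 (−1.24 ± 0.20, adjusted p = 0.016) were also lower in trained muscle then. The difference between trained and untrained muscle at 6 h was larger or smaller than the difference at 72 h for 72 genes (0.616% of the 11691, limma contrast between both differences, same thresholds), 38 of them with the higher value at 6 h and 34 with the lower, and 46 of the 72 were also called at 6 h. At 72 h alone, 42 genes were called between trained and untrained muscle.

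**Figure D4:**
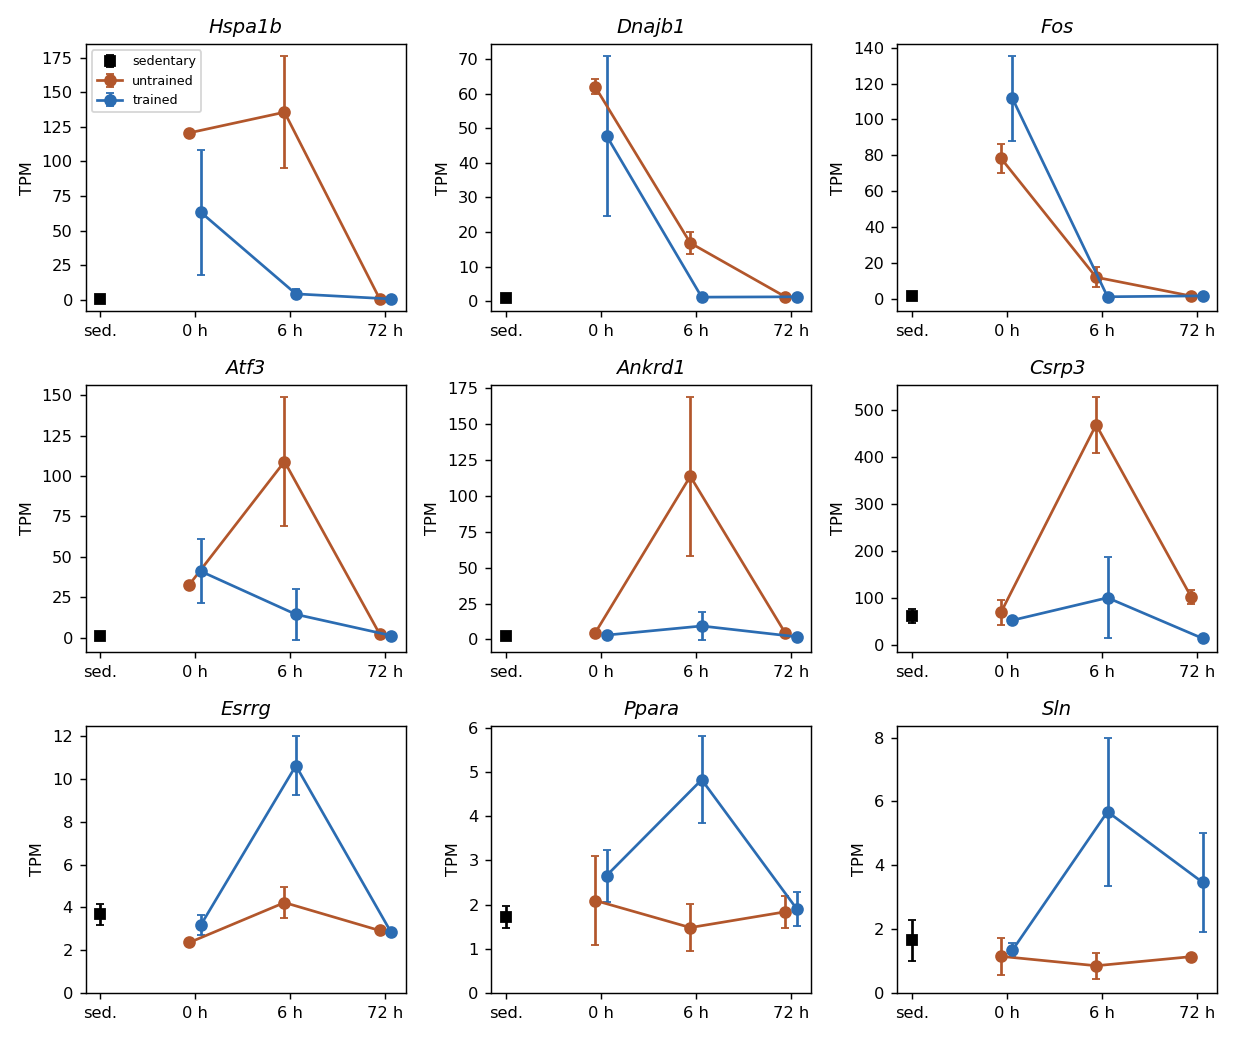
Mean level (TPM, linear axes) in sedentary muscle (square) and in untrained and trained muscle at each time point after the bout, with bars of 1 SD over 3 libraries (2 at 0 h). Hspa1b, Dnajb1 and Fos are high at 0 h in both groups and remain raised at 6 h in untrained muscle, Atf3, Ankrd1 and Csrp3 peak at 6 h in untrained muscle, and Esrrg, Ppara and Sln are highest in trained muscle at 6 h.

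Markers of fibre type and of immune cells were also examined in the 6 libraries. All 9 tested slow fibre genes had differences above 0, with a median of 1.12 and no call, and 3 or 4 were called higher under the other scalings. Their summed level was 310, 440 and 292 TPM in untrained, 1276, 435 and 700 TPM in trained and 601 to 1154 TPM in sedentary muscle. Trained replicate 1 was thus the highest of all 6 and trained replicate 2 lay inside the untrained range. Of the 9 genes, 5 were called without trained replicate 2, 1 without untrained replicate 2 and 0 without any other single library. Only 1 of the 9 lay wholly above the untrained libraries (7.52% of all tested genes). Myl2, the slow regulatory myosin light chain, was at 96.7, 107 and 77.4 TPM in untrained and at 492, 138 and 224 TPM in trained muscle (1.41 ± 0.40, adjusted p = 0.0574), and Myl3 overlapped (0.49 ± 0.27, adjusted p = 0.341). The 12 fast fibre genes had a median of −0.18, and their sum was 110900 to 118299 TPM in untrained and 96717 to 104893 TPM in trained muscle, with Mylpf (−0.22 ± 0.08, adjusted p = 0.157) and Tnnc2 (−0.27 ± 0.05, adjusted p = 0.0133) under 1.5-fold. The part of fibre composition in the higher genes, Sln, Mb and Ldhb among them, was not tested.

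Of 12 macrophage markers 8 were tested, all with differences below 0 (median −0.54), and Cd68 (−1.47 ± 0.20, adjusted p = 0.00115) and Csf1r (−0.78 ± 0.16, adjusted p = 0.0135) were called lower in trained muscle. The summed level of the 12 markers was 40.9, 85.6 and 67.6 TPM in untrained, 38.3, 39.6 and 56.1 TPM in trained and 45.6 to 50.1 TPM in sedentary muscle. The groups overlapped in this sum, untrained replicate 1 being as low as the trained libraries, and the list held 7 calls without untrained replicate 1 and 1 without untrained replicate 2. The part of macrophage content in the lower genes was not tested. In bulk tissue, fewer cells of a type and less RNA per cell cannot be told apart. No neutrophil or lymphocyte marker reached the level for testing, and no endothelial, fibro-adipogenic, satellite cell, adipocyte, red blood cell, smooth muscle or Schwann cell marker was called. The 6 tested adipocyte markers all had differences above 0 (median 0.44). The 8 fibro-adipogenic markers had a median of −0.30, with 6 below 0 and 2 above. In both lists, every member overlapped between the groups.

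**Figure D5:**
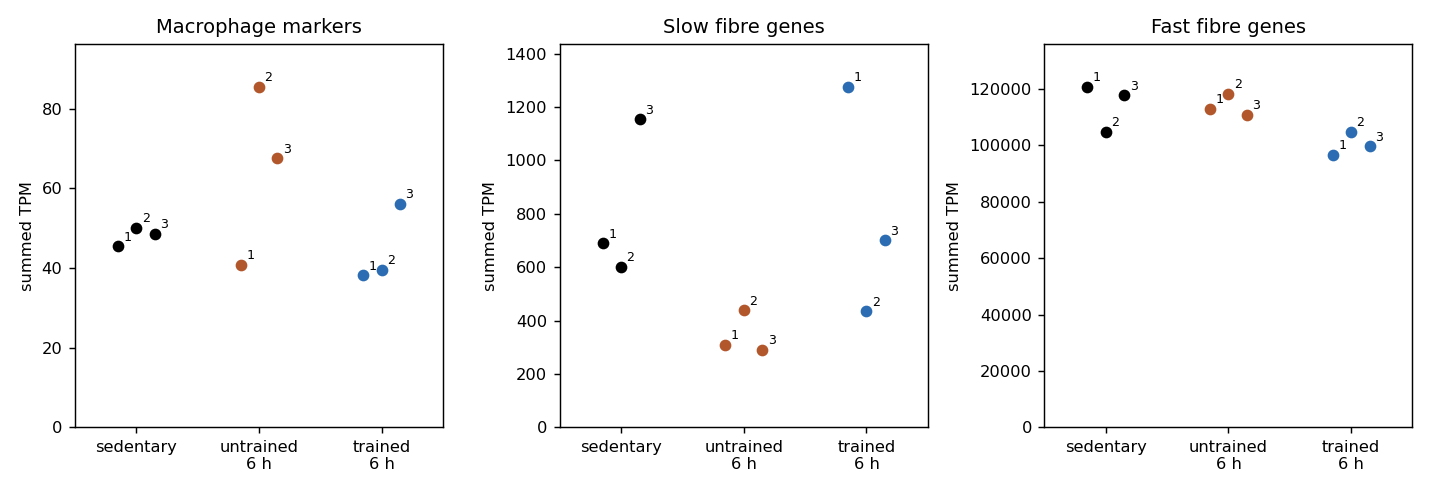
Summed TPM of macrophage markers, slow fibre genes and fast fibre genes in each sedentary, untrained 6 h and trained 6 h library, numbered by replicate, on linear axes from 0. Untrained replicates 2 and 3 have the highest macrophage sums, and the slow fibre sum ranges from 435 to 1276 TPM among the trained libraries.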

How the data were processed

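RNA of quadriceps muscle was sequenced in 21 libraries of 7 groups, prepared with a kit that does not mark strand. Per the labels, the authors aligned reads with STAR 2.7.9 to GRCm39 and quantified genes with Salmon 1.5.0, and the deposited values are TPM (per gene symbol, corrected for length and scaled to the same total per library). TPM are not counts, so that a gene's level depends on what all other genes take up, and depth and counting error are unknown.

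From these values, log2(TPM + 0.5) went into a linear model (limma 3.58.1, R 4.3.3, eBayes with trend) with 1 mean for each of the 7 groups over 19 libraries, leaving 12 residual degrees of freedom, after 2 identical 0 h libraries were left out. Genes averaging under 1 TPM in the 6 libraries at 6 h were not tested. A gene could pass this filter through the group in which it was high. Among the genes named, Ccl2 and Klf5 did so on the lower side. On the higher side, Sln, Gm826, Cacna1a and Acot11 did so. Genes were called at an adjusted p below 0.05 (Benjamini-Hochberg) and a log2 difference of at least 0.585. A difference and its error are given as the fitted value ± SE, and levels as mean ± SD where marked. The fit was tested on simulated data. The 39 gene lists, the samples and the rules were chosen with earlier results of these data known. Named genes are the 10 largest differences in each direction among called nuclear protein-coding genes without overlap, called list members, the 2 most abundant members of described lists without a call, and Klf5, Esrrg, Fos, Jun, Junb, Atf3, Cebpb, Nr4a2, Egr1, Egr3 and Ppargc1a, which the study names. Hspa8, Hspd1, Esrra, Perm1, Cd36, Pdk4, Per1, Myc and members named without a call or beyond the first 4 of a list were added after their values were seen, as were the genes of the closing section's first paragraphs. Gene types and positions are from the GRCm39 annotation. Motifs were searched on both strands in the 500 bases before the start of the canonical transcript. In 36 of the 99 genes named, the annotated span overlaps another tested gene. One gene that the size order would name and 1 stretch are not reported here. Alternatives comprised 22 settings of pseudocount, filter, scaling, model and left-out library.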

Additional observations from a re-analysis of the deposited data

Results flagged for a closer look

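In 25 of the 99 named genes, the difference between trained and untrained muscle at 6 h was itself different from that at 72 h. The test was the limma contrast of both differences (Benjamini-Hochberg, adjusted p below 0.05 and at least 1.5-fold), which called 0.616% of all tested genes. Most named genes were chosen for their difference at 6 h, and the contrast uses the same 6 h values. The count of 25, and the larger difference at 6 h in 24 of them, thus follow in part from that choice. All values are log2 differences at 6 h minus those at 72 h, ± SE. Among chaperones, Hspa1b (−4.71 ± 0.57, adjusted p = 0.0038), Hspa1a (−3.84 ± 0.51, adjusted p = 0.00547), Dnajb1 (−3.34 ± 0.30, adjusted p = 3.82e-04), Dnaja1 (−1.79 ± 0.38, adjusted p = 0.0464) and Dnajb4 (−1.21 ± 0.23, adjusted p = 0.0288) were further below the untrained level at 6 h than at 72 h, where their differences lay between −0.45 and 0.00.

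Of the other lower genes, the contrast was −3.71 for Otud1, −2.46 for Enah, −1.97 for Nr4a3, −1.80 for Ccl2, −1.61 for Hbegf, −1.53 for Tbc1d1, −1.46 for Klhl40, −1.36 for Klf5 and −1.19 for Flnc.

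Of the higher genes, the contrast was 2.05 for G0s2, 1.59 for Dusp18, 1.28 for Gpt, 1.27 for Esrrg, 1.15 for Tmem25, 1.01 for P2ry1, 0.94 for Tm6sf1, 0.93 for Acot11, 0.86 for Esrrb and 0.81 for Nudt22. G0s2 had a difference of 1.34 at 6 h and of −0.70 at 72 h (adjusted p = 0.195).

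The clock gene Per1 was the one of the 25 that was further apart at 72 h than at 6 h. Its contrast was −2.20 ± 0.36 (adjusted p = 0.0129), with −0.44 at 6 h (adjusted p = 0.373) and 1.76 ± 0.26 at 72 h (adjusted p = 0.00973), where it averaged 2.08 TPM without and 8.14 TPM with training. Whether the hour of tissue collection differed between these groups was not tested. No group at 6 h had enough libraries for a test of single outlying libraries.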

How the results depend on the processing

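All 78 called genes named kept their direction in all alternatives in which they were tested. Of these, 50 kept their call in every such setting but the model of 6 libraries alone. Only Hspa1b, Hspa1a, Dnajb1, Fos, Dusp18, Esrrg and Tm6sf1 were called in every setting in which they were tested, that model included. For Dusp18 and Tm6sf1 these were 21 of the 22 settings. Of 239 calls (72 higher, 167 lower), 29 were among the 39 calls (17 and 22) of a model of 6 libraries, which has fewer degrees of freedom, 140 among the 148 (35 higher) with a minimum of 5 TPM, and 91 among the 91 (24 and 67) against a tested fold of 1.2, while dropping the fold threshold gave 588 (217 and 371). Higher calls rose to 116 under quantile normalization, 138 without the mitochondrial genome and the 10 highest genes, and 149 with nuclear protein-coding genes only. The 72 calls of the contrast with 72 h became 47 with a minimum of 5 TPM, 18 against a fold of 1.2, and 115 under quantile normalization and again under sample weights. Leaving out 1 library gave 153 (without untrained replicate 2) to 419 calls (without untrained replicate 1), with 54 to 73 higher, 99 to 346 lower and 43 (without trained replicate 3) to 107 for the contrast. Why untrained replicates 1 and 2 weigh so much was not tested. With a replicate block the calls were 226, and the numbers do not pair the libraries, since deviations of same-numbered libraries correlated at −0.03 to 0.03. Junb changed sign without the mitochondrial genome and the 10 highest genes (0.035), with nuclear protein-coding genes only (0.062) and on leaving out 1 library (−0.14 to 0.12), as did Nr4a2 under quantile normalization (0.077) and on leaving out 1 library (−0.90 to 0.12).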

Other observations

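Genes next in size after the 10 largest in each direction, chosen after their values were seen, extend both sides. Hbegf, an EGF receptor ligand, measured 22.6, 33.2 and 15.9 TPM in untrained and 7.77, 4.21 and 5.14 TPM in trained muscle (−1.95 ± 0.22, limma adjusted p = 2.23e-04). The groups did not overlap. Rrad (−2.34), a small GTPase that inhibits calcium channels, Mustn1 (−2.29), a small nuclear protein of muscle and skeleton, the LIM protein Lmcd1 (−2.11) and Klhl40, which stabilizes thin filament proteins, were lower too. Klhl40 was at 145, 206 and 136 TPM in untrained and at 55.7, 35.3 and 31.2 TPM in trained muscle, against 29.9 ± 1.57 TPM in sedentary muscle (SD, n = 3), and shares part of its span with the lower genes Hhatl and Gm47108. Mustn1 was also lower at 72 h (−1.95 ± 0.39, adjusted p = 0.0355). Serpinh1 (HSP47), the collagen chaperone of the endoplasmic reticulum, went from 30.6, 52.7 and 35.8 TPM to 12.8, 13.6 and 11 TPM (−1.60 ± 0.23, adjusted p = 0.0015), unlike Hspa5 and Calr of the same compartment, which were not called.

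On the higher side followed Nceh1 (1.08), a neutral cholesterol ester hydrolase, the unnamed gene Gm826 (1.04), the calcium channel gene Cacna1a (0.95), Tmem25 (0.94), the replication licensing inhibitor Gmnn (0.92), the acyl-CoA thioesterase Acot11 (0.91), the MEF2 coactivator Mamstr (0.84) and the ADP-ribosyltransferase Art5 (0.84). Tm6sf1 was the tightest of them, with 2.80, 2.97 and 2.76 TPM in untrained and 5.96, 5.76 and 5.73 TPM in trained muscle. Art5 was at the sedentary mean of 22.0 TPM in trained replicates 1 and 2, and its untrained values of 12.2, 14.1 and 7.62 TPM were below that mean.

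The class II antigen presentation genes H2-Ab1 (−0.96 ± 0.21, adjusted p = 0.0172), H2-Eb1 (−0.76 ± 0.20, adjusted p = 0.0448), H2-Aa (−0.67 ± 0.16, adjusted p = 0.0317) and Cd74 (−0.66 ± 0.18, adjusted p = 0.0445) were all lower in trained muscle. H2-Ab1 measured 6.99, 13.9 and 11 TPM in untrained, 4.68, 5.47 and 4.94 TPM in trained and 12.3 TPM on average in sedentary muscle, so that here the trained libraries stood apart from both other groups. The calls of the 4 genes were lost in 6 to 10 of the 22 alternative settings, and the part of macrophage numbers, whose marker sums are given above, was not tested.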
